A study of Mus musculus with 2 samples.

Results

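The genes described here encode contractile proteins: the actins, myosin heavy and light chains, troponins, tropomyosins and alpha-actinins of skeletal, cardiac and smooth muscle, their non-muscle isoforms, and proteins bound to them such as calponin, transgelin, desmin and muscle creatine kinase. They were chosen as the probe sets whose platform annotation gives 1 of 46 listed gene symbols, and all 46 were found among the 18193 genes measured, through 82 probe sets. Expression was measured on 1 microarray per genotype, in mucosal scrapings of the colon of C57BL/6 mice aged 6 to 8 weeks (7 weeks in the design text) that had received for 3 days 3% DSS (dextran sulfate sodium), which damages the lining of the colon. Both groups received DSS, so no array shows the untreated colon. The F/F mice carry conditional alleles (Hif-2αF/F) of Epas1, which encodes HIF-2α, a transcription factor stabilised by low oxygen. The Hif-2αΔIE mice have lost it, as the name is read here, from the intestinal epithelium; the labels do not name the promoter that drives the recombinase. By the design text there were 6 mice of the F/F and 5 of the ΔIE genotype; the sources used here do not say whether RNA of several mice was pooled for an array. With 1 array per genotype there is no replicate error, no test between genotypes was possible, and every value below compares these 2 arrays.

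In striated muscle, myosin heads pull on actin filaments when calcium binds the troponin complex, which shifts tropomyosin along the filament. Fast and slow fibres, the heart and the embryo each use their own isoforms of these proteins. Smooth muscle has no troponin: calcium and calmodulin activate myosin light chain kinase, which phosphorylates the myosin light chain. In the colon, smooth muscle forms the muscularis mucosae and the outer muscle coats, striated fibres surround the anal canal as the external sphincter, and the epithelium uses non-muscle actomyosin at its cell borders and brush border. The members were therefore grouped, from textbook knowledge, as 11 genes of fast skeletal muscle, 8 of slow skeletal or cardiac muscle, 3 developmental isoforms, 10 of smooth muscle, 3 shared by striated and smooth muscle and 11 non-muscle isoforms. The fast skeletal group also holds Acta1 and Ckm, which are genes of skeletal muscle but not particular to fast fibres.

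Values are on the log2 scale of RMA (robust multi-array average), each gene is read from its brightest probe set by the mean of the arrays, and a difference is the ΔIE value minus the F/F value. A difference of 1 is a 2-fold change. The array labels were checked on 4 control probe sets for Cre recombinase, which read 2.92 to 4.22 for F/F and 7.86 to 10.01 for ΔIE. Epas1 differed by -0.13 by its brighter probe set, which checks the deletion only if it lies in the deleted part; that position was not determined here. The median of all probe sets, 6.11, serves below as a reference for dim readings, because RMA gives no detection call. Over all genes the median difference was 0.04, with quartiles of -0.14 and 0.19.

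Fast skeletal muscle genes read higher on the ΔIE array, while by brightest probe sets no smooth muscle or non-muscle isoform differed by 2-fold. At 2-fold or more, 9 of the 46 genes were higher, a share of 19.6% where 0.797% of all genes were, and 1 gene was lower, a share of 2.17% where 3.72% of all genes were. Members were chosen with earlier results of these data known, so the contrast of these shares is a description and not a test. Of the 9 higher genes 8 belong to the fast skeletal group, among them Acta1 and Ckm, which are not particular to fast fibres. The other is the cardiac actin gene Actc1. At 1.5-fold, 12 genes were higher and 3 lower, where 3.3% and 7.84% of all genes were. At 3-fold, 2 were higher and 0 lower, where 0.11% and 0.995% were. The gene 2-fold lower is Tnni1, which encodes troponin I of slow skeletal muscle. Without probe sets whose ID ends in _s_at, _x_at or _a_at, which can match several transcripts, 5 of the 37 genes left were 2-fold higher and 0 lower, where 0.765% and 3.53% of all genes were. The medians were 1.20 over the fast skeletal genes, 0.21 over the slow and cardiac genes, 0.41 over the developmental genes, 0.07 over the smooth muscle genes, -0.01 over the shared genes (0.01 with the arrays centred on their medians) and -0.16 over the non-muscle genes. In bulk tissue, a difference in the number of cells of a type cannot be told apart from a difference in RNA per cell.

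**Figure D1:**
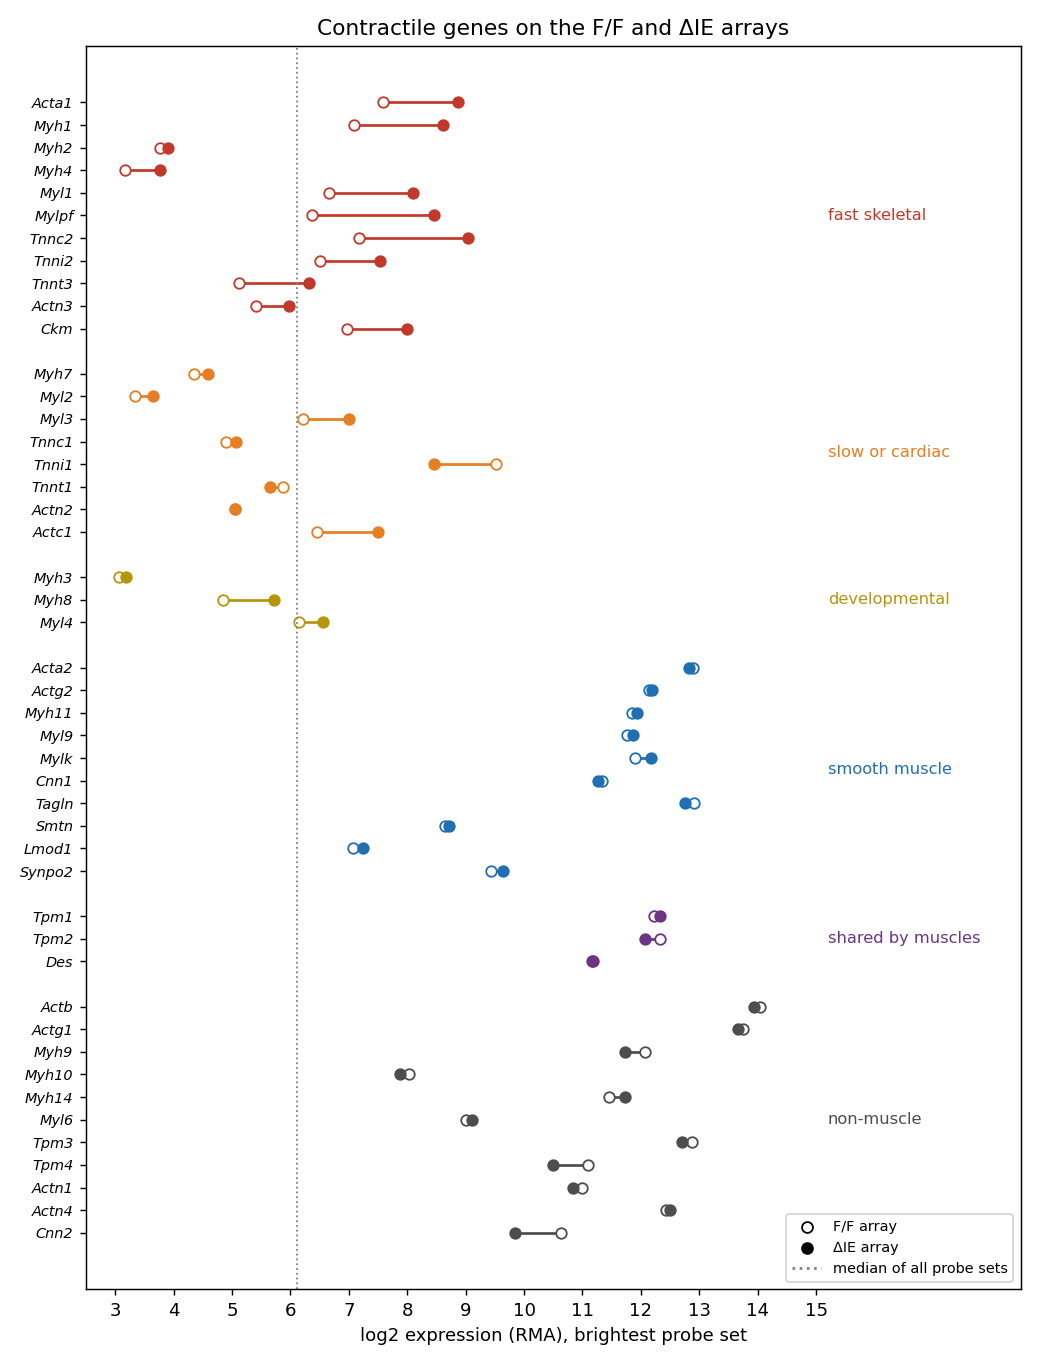
Log2 expression (x axis, RMA) of the 46 contractile genes (y axis, grouped by isoform class) on the F/F array (open circles) and the ΔIE array (filled circles), by each gene's brightest probe set; lines join the 2 values of a gene and the dotted line is the median of all probe sets, 6.11. The fast skeletal genes shift to the right on the ΔIE array, Mylpf by 2.09, whereas the 10 smooth muscle genes differ by -0.15 to 0.28.

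Mylpf had the largest difference of the 46 genes. It encodes the regulatory light chain of fast skeletal myosin and read 6.37 for F/F and 8.46 for ΔIE, a 4.27-fold difference and rank 2 among all 18193 genes ordered from the highest. Tnnc2, the calcium-binding troponin C of fast fibres, read 7.17 and 9.04, a 3.66-fold difference and rank 5. Each rests on a single probe set. Their promoters are shown because no other members differed more; each runs from 250 bases before to 50 after the RefSeq start site (build GRCm38.p6), 5′ to 3′, with every E-box, the CANNTG sequence bound by myogenic factors such as MyoD, in capitals.
Mylpf, chr7:127211358-127211657, plus strand: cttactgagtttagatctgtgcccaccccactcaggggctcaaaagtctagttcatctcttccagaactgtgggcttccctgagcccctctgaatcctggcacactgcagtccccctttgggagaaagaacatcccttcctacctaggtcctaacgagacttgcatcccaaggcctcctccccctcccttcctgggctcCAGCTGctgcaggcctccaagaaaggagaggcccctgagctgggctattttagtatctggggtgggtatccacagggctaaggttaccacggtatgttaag
Tnnc2, chr2:164779685-164779984, minus strand: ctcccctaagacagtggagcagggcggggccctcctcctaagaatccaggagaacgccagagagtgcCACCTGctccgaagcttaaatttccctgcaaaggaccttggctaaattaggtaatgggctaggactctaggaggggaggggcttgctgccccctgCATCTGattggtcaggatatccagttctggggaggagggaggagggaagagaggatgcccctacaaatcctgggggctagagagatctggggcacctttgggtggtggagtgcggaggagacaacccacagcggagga
The Mylpf window holds 1 E-box, CAGCTG, which starts 51 bases before the start site. The Tnnc2 window holds 2, CACCTG and CATCTG, at 183 and 88 bases before it. This short motif reads the same on both strands and was present in 72.3% of the 32851 promoters of the table. It was present in 39 of the 44 promoters (88.6%) found for 39 of the 46 members.

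Other proteins of the skeletal myofibril followed. Acta1, the alpha-actin of adult skeletal muscle, read 7.58 for F/F and 8.86 for ΔIE (2.42-fold). Myh1, the heavy chain of fast IIx fibres, read 7.09 and 8.60 (2.85-fold). Myl1, the essential light chain of fast myosin, read 6.65 and 8.10 (2.72-fold). All 3 had both readings above the median of all probe sets. For Myh1, the second probe set differed by 1.46 but the third, at 4.06 and 4.26, by 0.19. The brighter pair carry suffixes (_a_at and _x_at) of probe sets that can match more than a single transcript, and fast myosin heavy chain genes are close in sequence, so which heavy chain these readings measure is uncertain.

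The fast troponin subunits other than Tnnc2 were higher as well. Tnni2, the inhibitory subunit, read 6.51 for F/F and 7.53 for ΔIE (2.03-fold), and its dimmer probe sets differed by 0.71 and 0.42. Tnnt3, the tropomyosin-binding subunit, read 5.11 and 6.32, so only its ΔIE reading passed the median of all probe sets and no fold is given. By brightest probe sets all 3 subunits of the fast troponin complex were thus counted at 2-fold. The count of Tnnt3 rests on a dim F/F reading and that of Tnni2 on its brightest probe set alone. Ckm, the creatine kinase that regenerates ATP in muscle, read 6.97 and 8.00 (2.04-fold), but its second probe set, at 5.69 and 5.82, differed by only 0.13. The call for Ckm therefore holds for 1 of its 2 probe sets.

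The 3 fast skeletal genes under 2-fold were dim on both arrays. Actn3, the alpha-actinin of fast Z-discs, read 5.41 for F/F and 5.97 for ΔIE, a difference of 0.56. Myh4, the heavy chain of fast IIb fibres, read 3.17 and 3.76, and its second probe set read lower on the ΔIE array by -0.24 in log2 difference. Myh2, the heavy chain of IIa fibres, read 3.76 and 3.90. At such readings RMA compresses differences, so a small difference does not show that the transcript was alike. All 11 fast skeletal genes were above 0 by their brightest probe sets, where 54.9% of all genes were.

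**Figure D2:**
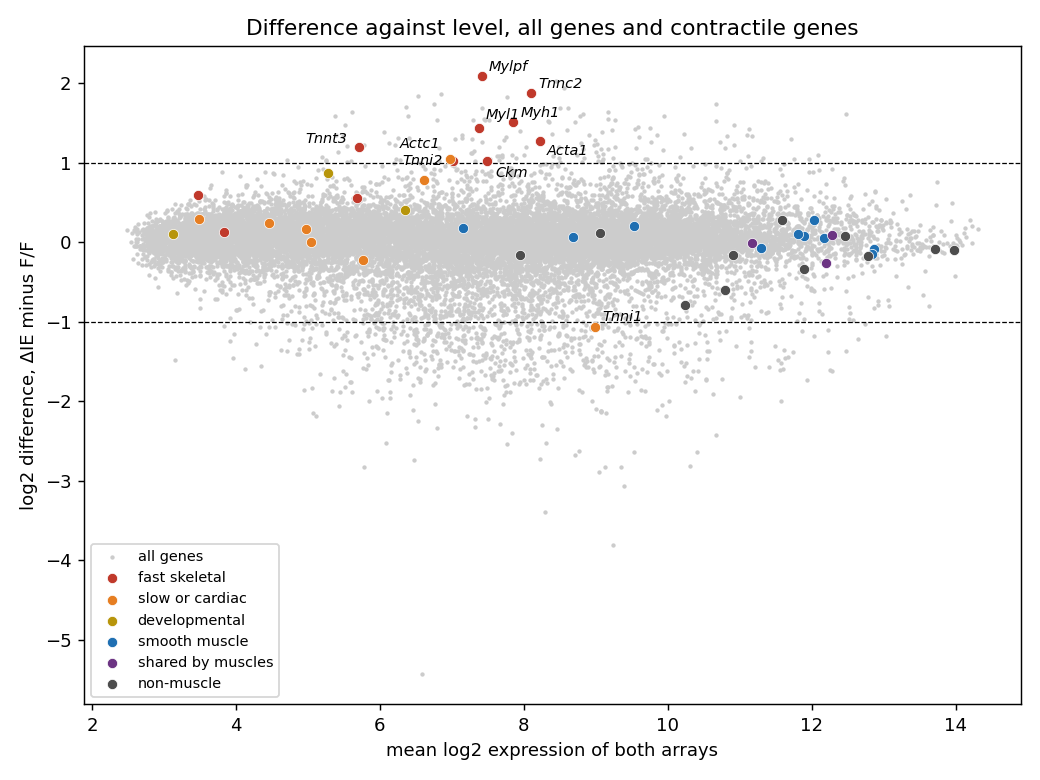
Log2 difference, ΔIE minus F/F (y axis), against the mean log2 expression of both arrays (x axis) for 18193 genes (grey) and the 46 contractile genes (coloured by isoform class); dashed lines mark 2-fold and the genes past them are named. The fast skeletal genes past 2-fold lie at the upper edge of the cloud, up to 2.09 for Mylpf, and the smooth muscle and non-muscle genes lie between -0.79 and 0.28.

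The slow and cardiac isoforms went both ways and were mostly dim, with 5 of 8 genes below the median of all probe sets on both arrays. Actc1, the alpha-actin of the heart and of developing muscle, read 6.45 for F/F and 7.50 for ΔIE (2.07-fold). Myl3, the essential light chain of slow and ventricular myosin, read 6.22 and 7.00 by its brightest probe set. Its other probe sets differed by more, 0.95 and 1.92, the latter from 4.51 to 6.42. All 3 Myl3 probe sets were thus higher on the ΔIE array, by 0.78 to 1.92.

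Tnni1 went the other way: it read 9.52 for F/F and 8.46 for ΔIE, 2.09-fold lower, by its single probe set. Its partners in the slow troponin complex were dim on both arrays. Tnnc1, the troponin C of slow and cardiac muscle, read 4.89 and 5.06, and Tnnt1, slow troponin T, read 5.87 and 5.65. Both lie below the median of all probe sets, where RMA compresses differences. The slow myosin heavy chain gene Myh7 read 4.34 and 4.59 and the slow regulatory light chain gene Myl2 3.34 and 3.64. Actn2, the alpha-actinin of slow and cardiac Z-discs, read 5.05 on both arrays, with a difference of 0.00.

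Among the developmental isoforms, Myh8, the perinatal heavy chain, read 4.84 for F/F and 5.71 for ΔIE. Myl4, the light chain of embryonic muscle and the atria, read 6.14 and 6.55, and its dimmer probe set differed by -0.05. Myh3, the embryonic heavy chain, read 3.07 and 3.18. No developmental gene passed 2-fold, and Myh3 and Myh8 were dim on both arrays. In the RefSeq annotation Myh3, Myh2, Myh1, Myh4 and Myh8 lie side by side on chromosome 11 with 0 coding genes between neighbours; of these 5 genes only Myh1 passed 2-fold. Tnni2 and Tnnt3, both past 2-fold by brightest probe sets, lie on chromosome 7 with 1 coding gene between them.

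Smooth muscle genes were above the median of all probe sets on both arrays and differed little. By brightest probe sets none of the 10 passed 2-fold, a size that 0.797% of all genes reached upward and 3.72% downward. Of the 10, 7 were above 0 and 3 below, where 54.9% and 42.4% of all genes were. Their differences ran from -0.15 to 0.28. The alpha-actin gene Acta2 read 12.90 for F/F and 12.82 for ΔIE, and the gamma-actin gene of enteric smooth muscle, Actg2, 12.14 and 12.20. The smooth muscle heavy chain gene Myh11 read 11.85 and 11.93 and the regulatory light chain gene Myl9 11.76 and 11.87. For these 4 genes, which form the thick and thin filaments of smooth muscle, the arrays differed by at most 0.11, and the sign for Actg2 turned with a lowess correction.

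Of the 10 smooth muscle members, Mylk, the myosin light chain kinase, had the largest difference by brightest probe sets. It read 11.90 for F/F and 12.18 for ΔIE, and its dimmer probe sets differed by 0.39 and 0.56, so all 3 were higher. The actin-binding genes Tagln (transgelin) and Cnn1 (calponin) differed by -0.15 and -0.08, Smtn (smoothelin) by 0.07 and Lmod1 (leiomodin, which starts actin filaments) by 0.18. Synpo2, which encodes an actin-bundling protein of the Z-disc and dense bodies, had probe sets that disagreed. Its brightest probe set read 9.43 and 9.64, but 2 others read 7.04 and 5.82, and 6.77 and 5.72, differences of -1.22 and -1.06. The probe sets of Synpo2 therefore give opposite directions, and averaged over all 4 it differed by -0.59. The genes shared by striated and smooth muscle differed by 0.10 for Tpm1, -0.26 for Tpm2 and -0.01 for Des, the gene of the intermediate filament desmin, and all 4 Tpm2 probe sets were lower, by -0.37 to -0.26.

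Non-muscle isoforms were on balance slightly lower on the ΔIE array, with 8 of 11 genes below 0, where 42.4% of all genes were, and a median of -0.16, where that of all genes was 0.04. None passed 2-fold, a size that 0.797% of all genes reached upward and 3.72% downward. Cnn2, the calponin of non-muscle cells, read 10.63 for F/F and 9.84 for ΔIE, a difference of -0.79. The tropomyosin gene Tpm4 read 11.09 and 10.49, a difference of -0.60. Myh9, the heavy chain of non-muscle myosin IIA, read 12.07 and 11.73, and all 5 of its probe sets were lower, by -0.47 to -0.20. Myh14, the heavy chain of myosin IIC found in epithelia, went the other way at 11.45 and 11.73. The heavy chain gene Myh10 (myosin IIB) differed by -0.16, the tropomyosin gene Tpm3 by -0.18, and the alpha-actinin genes Actn1 and Actn4 by -0.16 and 0.08.

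The cytoplasmic actins, often used as a reference for loading, differed little. Actb read 14.03 for F/F and 13.94 for ΔIE, and 3 control probe sets for the same transcript differed by -0.09 to -0.07. Actg1 read 13.75 and 13.67. The essential light chain gene Myl6 differed by 0.11 by the probe set that names it alone and by -0.04 and -0.03 by those shared with copies of the gene. For these genes the arrays thus differed by at most 0.11.

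**Figure D3:**
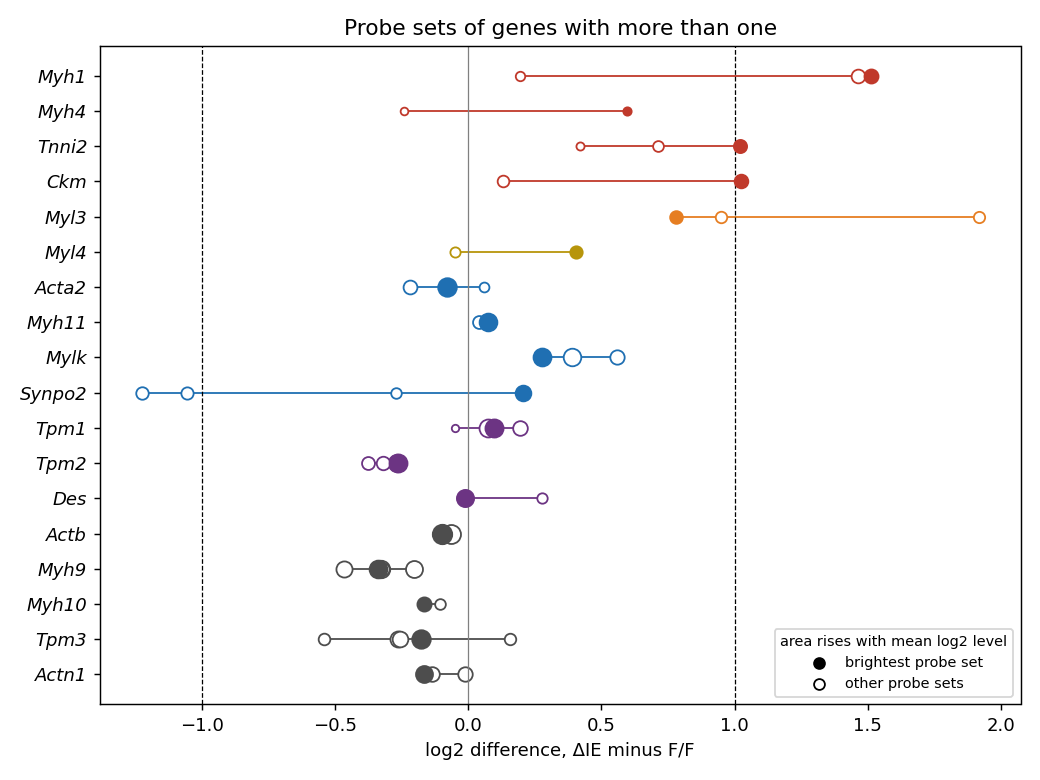
Log2 difference, ΔIE minus F/F (x axis), of every probe set of the 18 contractile genes with more than 1 (y axis); the filled point is the brightest probe set, point area rises with the mean log2 level, and dashed lines mark 2-fold. Synpo2 spreads from -1.22 to 0.20 and Myh1 from 0.19 to 1.51, while Myh9 stays between -0.47 and -0.20.

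Agreement between probe sets was mixed. Of all 82 probe sets, 11 were at least 2-fold higher and 3 lower, where 0.618% and 2.76% of all probe sets naming a single gene were. Of the 46 genes 28 have a single probe set, and of the other 18 the direction was the same for all probe sets in 11. For comparison, over 9010 genes with more than 1 probe set, the brightest pair of probe sets differed from each other by a median of 0.13, and by up to 0.58 in 95% of genes. Ckm, Synpo2 and Myh4 lay farther apart than that.

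The promoters were also searched for the CArG box, the binding sequence of serum response factor, which controls many actin and smooth muscle genes. The pattern searched was CCWWWWWWGG, where W is A or T, without mismatch, and it reads the same on both strands. Boxes that depart from it or lie outside the promoter window were not counted, so a gene without a match may still have one. The exact pattern was found in 8 of the 39 member genes with a promoter in the RefSeq table (8 of 44 promoters, 18.2%) and in 1.63% of all 32851 promoters. The windows of these 8 are shown, 5′ to 3′, with the CArG box in capitals and 10 bases on either side (GRCm38.p6), since they set genes of unequal difference side by side.
Acta1, chr8:123894829-123894858, minus strand: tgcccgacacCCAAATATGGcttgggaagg
Actc1, chr2:114052903-114052932, minus strand: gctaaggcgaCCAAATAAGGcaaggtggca
Actg1, chr11:120348566-120348595, minus strand: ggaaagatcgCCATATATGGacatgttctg
Cnn2, chr10:79988534-79988563, plus strand: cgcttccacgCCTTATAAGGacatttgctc
Myh4, chr11:67237698-67237727, plus strand: aaagagattgCCAAAAATGGttttgccaag
Myl3, chr9:110763583-110763612, plus strand: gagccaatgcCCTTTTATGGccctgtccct
Myl6, chr10:128493040-128493069, minus strand: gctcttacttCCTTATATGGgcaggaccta
Myl9, chr2:156775293-156775322, plus strand: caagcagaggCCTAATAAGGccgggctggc
The box starts 73 bases before the start site in Acta1, 47 in Actc1, 90 in Actg1, 56 in Cnn2, 104 in Myh4, 85 in Myl3, 50 in Myl6 and 161 in Myl9. The holders belong to 4 of the isoform classes, and their differences ran from -0.79 to 1.28. Acta1 and Actc1 were above 2-fold, at 1.28 and 1.05, Actg1 and Myl9 differed by -0.09 and 0.11, and Cnn2 by -0.79. By class, among genes with a promoter in the table, the box was in 2 of 8 fast skeletal, 2 of 8 slow or cardiac, 0 of 3 developmental, 1 of 7 smooth muscle, 0 of 3 shared and 3 of 10 non-muscle genes. Actg2, Myh11, Tagln, Actb, Actn3, Tnni2 and Tnnt3 were not searched. Neither Mylpf nor Tnnc2 has these letters in its window.

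Other genes of muscle were then examined in lists. Of 39 measured genes of the striated sarcomere and of calcium coupling, 34 were above 0, where 54.9% of all genes were, with a median of 0.20. At 2-fold, 2 were higher and 0 lower, where 0.797% and 3.72% of all genes were. Most were dim, 27 of them below the median of all probe sets on both arrays. Sln (sarcolipin, which inhibits the calcium pump) read 4.78 for F/F and 6.25 for ΔIE, and Pvalb (parvalbumin, a calcium buffer of fast fibres) 5.50 and 6.75. Only the ΔIE readings of both genes passed the median of all probe sets, so no fold is given, and the second probe set of Sln differed by 0.15. Ldb3 (a Z-disc protein) differed by 0.61, Atp2a1 (the calcium pump of fast fibres) by 0.54 and Nrap, which anchors actin at the fibre ends, by -0.90.

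Genes of energy supply in striated muscle had a median of 0.29, with 12 of 14 above 0, 1 gene 2-fold higher and 1 lower. Mb (myoglobin) read 5.36 for F/F and 6.75 for ΔIE, and its second probe set differed by 0.34. Eno3, the muscle enolase, was 3.52-fold lower, at 10.08 and 8.27. Eno3 and Tnni1 were thus lower on the array on which most fast skeletal genes were higher. Of 16 myogenic factor and endplate genes none was 2-fold higher; the regulators of the myogenic lineage Myod1 (3.87 and 4.27), Myog (5.64 and 5.48), Myf5 (2.84 and 2.55) and Myf6 (4.12 and 4.51) were below the median of all probe sets. Mef2c, a factor of muscle that B cells and endothelium also express, was 2.28-fold lower. Of 8 cardiac markers, 6 were below the median of all probe sets on both arrays, among them Myh6 at 3.10 and 3.14, Nppa at 3.76 and 3.96 and Tnni3 at 4.11 and 3.98. The others were Myl7, the atrial regulatory light chain, at 8.00 and 7.79, and Tnnt2, cardiac troponin T, at 7.64 and 5.88, whose probe sets ran from -2.38 to -0.05.

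Regulators of smooth muscle, such as kinases, phosphatase subunits and adhesion proteins, had a median of -0.09 with 16 of 24 below 0, where 42.4% of all genes were. None passed 2-fold, a size that 0.797% of all genes reached upward and 3.72% downward. Pdlim7, Cald1 (caldesmon), Csrp1 and Cnn3 differed by -0.63, -0.58, -0.50 and -0.48, Flna (filamin A) by -0.37 and Hspb6 by 0.48. Myocd, the coactivator of smooth muscle genes, differed by under the 0.58 spread of probe sets, at 6.97 and 6.91.

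**Figure D4:**
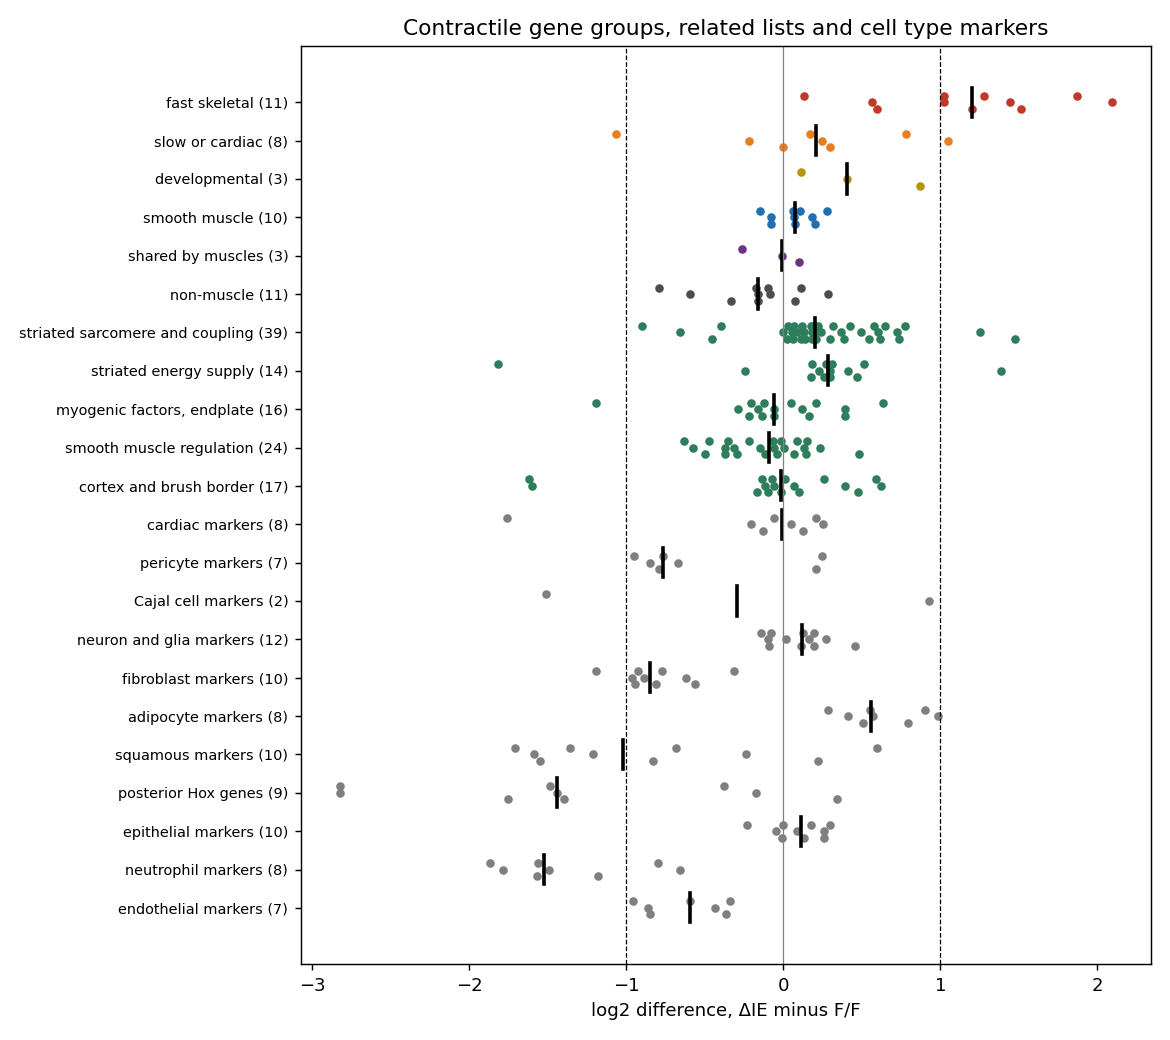
Log2 difference, ΔIE minus F/F (x axis), of each gene in the contractile groups (coloured), related muscle and cytoskeleton lists (green) and cell type markers (grey); black bars are list medians, numbers in brackets count the genes measured and dashed lines mark 2-fold. The fast skeletal median, 1.20, lies to the right, the posterior Hox (-1.44) and neutrophil (-1.53) medians to the left, and the smooth muscle median, 0.07, near 0.

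Markers of other cells and of position along the gut also differed between the arrays. For comparison, 54.9% of all genes were above 0 and 42.4% below. All 8 adipocyte markers measured were above 0, with a median of 0.56, and their summed linear values were 3497 for F/F and 5356 for ΔIE. All 10 fibroblast markers were below 0 (median -0.85, sums 44336 and 26569), as were all 8 neutrophil markers (median -1.53, sums 51780 and 27164) and all 7 endothelial markers (median -0.59). Of the 10 squamous markers, genes of squamous epithelium such as that next to the anus, 8 were below 0 (median -1.02). Of 9 posterior Hox genes 8 were below 0 (median -1.44, sums 4261 and 909.9). The exceptions were Lor (0.60) and Ivl (0.22) of the squamous list and Hoxc10 (0.34) of the Hox list. Epithelial markers (median 0.11, sums 91305 and 97536) and neuron and glia markers (median 0.12) differed little. Of 7 pericyte markers 5 were below 0 (median -0.77), but their sums were close, 5691 and 5350. RMA lists no value at 0, so no marker could be called absent. The part of these markers in the contractile gene differences was not tested.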

How the data were processed

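Colon scrapings of 2 genotypes were measured on 1 array each. The deposited values are log2 expression, which the authors computed by RMA in the affy package, per the submitters' processing notes; RMA corrects background, sets the arrays' distributions equal and summarises probe sets. Of 45101 probe sets, 34958 carried 1 gene symbol in the platform annotation, 932 several and 9211 none; the latter kinds and 64 control probe sets were kept out, leaving 18193 genes. No filter on level was applied, so that every member is counted; 10 of the 46 members were below the median of all probe sets, 6.11, on both arrays. The text names any member, and of each related list genes at 2-fold or among the 6 of largest difference with a value at or above that median; Myod1, Myog, Myf5, Myf6, Myocd, Vil1 and the markers named were chosen after their values were seen. Members and lists were chosen with earlier results of these data known. Precision is limited by the number of arrays, 1 per genotype. Counting was tested on simulated data. Promoters came from a RefSeq table (GRCm38.p6). Alternatives covered probe set choice, filters, centring, lowess (span 0.3) and thresholds. Python 3.11.15, numpy 2.4.6, pandas 2.3.3, statsmodels 0.14.6 and matplotlib 3.10.9 were used.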

Additional observations from a re-analysis of the deposited data

How the results depend on the processing

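The number of the 46 genes at least 2-fold higher was 9 in the main setting. It was 7 to 9 with probe sets averaged, the second brightest probe set, median centring or a lowess correction. Of all genes 0.797% were higher in the main setting and 0.621% to 0.852% in these others. Filters asking that the mean or both readings reach the median of all probe sets left 35 genes, with 8 higher. A filter on the higher reading left 36, with 9 higher, and Tnnt3 passed it by its ΔIE reading alone. Under these filters 1.03% to 1.15% of all genes were higher. Without probe sets ending in _s_at, _x_at or _a_at, 5 of the 37 genes left were 2-fold higher, where 0.765% of all genes were. Myh1 then differed by 0.19. With a threshold of 1.5-fold 12 genes were higher and 3 lower (3.3% and 7.84% of all genes), and at 3-fold 2 were higher and 0 lower (0.11% and 0.995%). The number lower, 1 in the main setting, was 0 without those suffixed probe sets, which leave out Tnni1, and 2 with the second brightest probe set, where Synpo2 differed by -1.22. Of all genes 3.72%, 3.53% and 3.25% were lower in these settings, in that order. Group medians stayed within 0.81 to 1.44 for fast skeletal, 0.14 to 0.78 for slow and cardiac, 0.11 to 0.42 for developmental, 0.03 to 0.09 for smooth muscle and -0.18 to -0.10 for non-muscle genes; the shared genes' median ran from -0.07 to 0.08. Ckm (0.13) and Myh4 (-0.24) moved with the second brightest probe set. No paired analysis was possible because each genotype has 1 array.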

Other observations

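Outside muscle, genes of the actin cytoskeleton of the cell cortex and brush border went both ways. Of 17 measured, 8 were above 0 and 9 below, with a median of -0.02, where 54.9% of all genes were above 0. Lcp1, the plastin of leukocytes, was 3.08-fold lower on the ΔIE array (10.80 and 9.18), and Fscn1, the actin bundler fascin, 3.03-fold lower (9.76 and 8.16), although another of its 4 probe sets differed by 0.00. Myo7b differed by 0.62, Epb41l3 by 0.59, Espn by 0.47, Pls1 by 0.39 and Vil1 (villin) by 0.26. Neutrophil markers had a median of -1.53 and epithelial markers a median of 0.11 on the same arrays. Their part in the differences of these cytoskeletal genes was not tested.

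Of the markers of interstitial cells of Cajal, the pacemaker cells of gut smooth muscle, Kit read 9.11 for F/F and 10.03 for ΔIE, whereas Ano1, their chloride channel, read 11.01 and 9.50. Both are also expressed outside these cells, and both probe sets of each gene gave the same direction.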
